A study of Mus musculus with 17 samples.

Results

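The 42 genes described here encode cell adhesion proteins of the synapse. They were taken by name as a fixed list of families and all 42 were found among the 26131 genes of the deposited nucleus-by-gene table. The counts come from single nuclei of the posterior brain of 17 female mice, 2.3 months old and carrying a knock-in of the human transferrin receptor (TfR) on both alleles (strain label Human TfR knock-in, genotype label hTfR KI HOM). Every group therefore carried the human receptor, including the controls. The mice received 4 intravenous doses at weekly intervals and were killed for tissue 72 hours after the final injection. 4 mice received saline. 4 received the free Malat1 antisense oligonucleotide (Malat1 ASO) at 2 mg/kg, 6 received the oligonucleotide joined to an anti-TfR antibody (anti-TfR:Malat1, labelled TfR-Malat1) at 50 mg/kg, and 3 received OTV:Malat1 at 50 mg/kg. The oligonucleotide is directed against Malat1, an abundant nuclear RNA. The labels do not say that the mice of a group came from separate litters, so the p-values below measure only the spread between these 17 animals.

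Synaptic adhesion proteins span the cleft between an axon terminal and its target. Neurexins and the LAR-type receptor phosphatases sit mainly on the presynaptic side, where they bind postsynaptic partners such as neuroligins, LRRTM proteins, SLITRK proteins, Il1rapl1 and Lrfn5. Teneurins and FLRT proteins bind latrophilins, contactins pair with contactin-associated proteins on axons and glia, and netrin-G proteins bind postsynaptic leucine-rich repeat ligands. Which members a neuron makes differs between neuron types and is thought to help decide which partners it connects to.

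The table held 284074 nuclei with 1099241149 unique molecular identifiers (UMIs), between 55393588 and 79866411 UMIs an animal. Values below are CPM, a gene's UMIs summed per animal and class and scaled to the same total for every such sum. Neurons were the most deeply sampled class, with 185932 nuclei and a median of 4731 UMIs. Oligodendrocytes had 74852 nuclei and 1276 UMIs, microglia 8444 and 1004, astrocytes 4960 and 1800, vascular nuclei 1222 and 1098.5, and perivascular macrophages 657 and 960. The 7782 nuclei of the deposited cluster 13 were kept apart: 94.3% carried the neuron label, but their leading genes were Lhfpl3 and Vcan, and they held Pdgfra at 608.6 CPM against 3.1 in neurons; all 3 genes mark oligodendrocyte precursors. The authors' doublet calls covered 16.8% of all nuclei, and 3.67% of the distinct cell barcodes occurred in more than 1 library. Malat1 made up 3.34 to 4.35% of UMIs in the 3 OTV:Malat1 animals and 4.65 to 8.09% in the 4 saline animals, so these groups did not overlap. Its share was 4.64 to 7.22% after anti-TfR:Malat1 and 4.60 to 7.60% after the free oligonucleotide, both overlapping saline.

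In neurons the order of the 42 genes in CPM followed gene length closely. Ptprd, a LAR-type receptor phosphatase, was at 7644 ± 594 CPM (SD, n = 17 animals), Nrxn3 at 5050 ± 339, and Slitrk2 at 8.9 ± 0.77. Even Slitrk2, the member with the fewest UMIs, was represented by 8469 UMIs in neurons. The members' median length was 302 kb against 22.9 kb over the genes tested in neurons, and 25 of 42 exceeded 100 kb against 13.8% of the genes tested. Across the 42 genes the Spearman correlation of length with neuronal CPM was 0.92, and with CPM per 100 kb of gene it was -0.08. These are descriptions across genes measured in the same nuclei. Unspliced RNA makes up much of the RNA in a nucleus, and its part in this correlation was not tested. Levels of different genes are ranked per length below.

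Per length, the order changed. Slitrk1, whose protein binds presynaptic receptor phosphatases, stood highest at 1074 CPM per 100 kb, followed by Flrt3 at 499.5, Lrrtm4 at 457.9 and Lrfn5 at 406.8. Slitrk1 was also the shortest of the 42 genes, at 4.25 kb, and held only 45.7 CPM, so its rank rests on a small divisor. Cntnap5c at 30.5, Ptprf at 37.3 and Flrt1 at 43.6 were the lowest. The animals were alike: the coefficient of variation over the 17 animals had a median of 7.2%, from 4.0% for Adgrl3 to 13.5% for Ntng2, and was under 10% for 30 of the 42 genes.

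RNA of neurons reaches other nuclei as free RNA, so a level in glia or vessels was read against the same ratio for 15 marker genes of neurons. For each animal the bound was the highest ratio of class to neurons among those genes, and a member was called above it where this held in at least 15 of 17 animals. Among these genes Nefl, which encodes a neurofilament chain, had the highest ratio in both astrocytes (1.08) and microglia (2.13). The list's median ratio was 0.197 in oligodendrocytes, 0.160 in astrocytes, 0.262 in microglia and 0.238 in vascular nuclei. The labels were made from the same nuclei and genes, so these levels are described without a test. The share of all genes above the bound was not counted, so counts of members above it are not read as particular to them.

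Neurons held the highest mean CPM for 20 of the 42 genes, cluster 13 for 16, astrocytes for 3 (Adgrl1, Slitrk2 and Ptprf), vascular nuclei for 2 (Adgrl2 and Flrt2) and oligodendrocytes for 1 (Cntn2). In every animal 37 genes were lower in microglia than in neurons and none was higher. In oligodendrocytes 38 were lower and 1 was higher in all 17 animals. In cluster 13, 19 genes were lower and 13 higher than in neurons in every animal, and the median ratio was 0.895 against 0.32 in astrocytes and 0.082 in microglia. The same counts over all genes were not made, so these are not read as particular to the members.

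**Figure D1:**
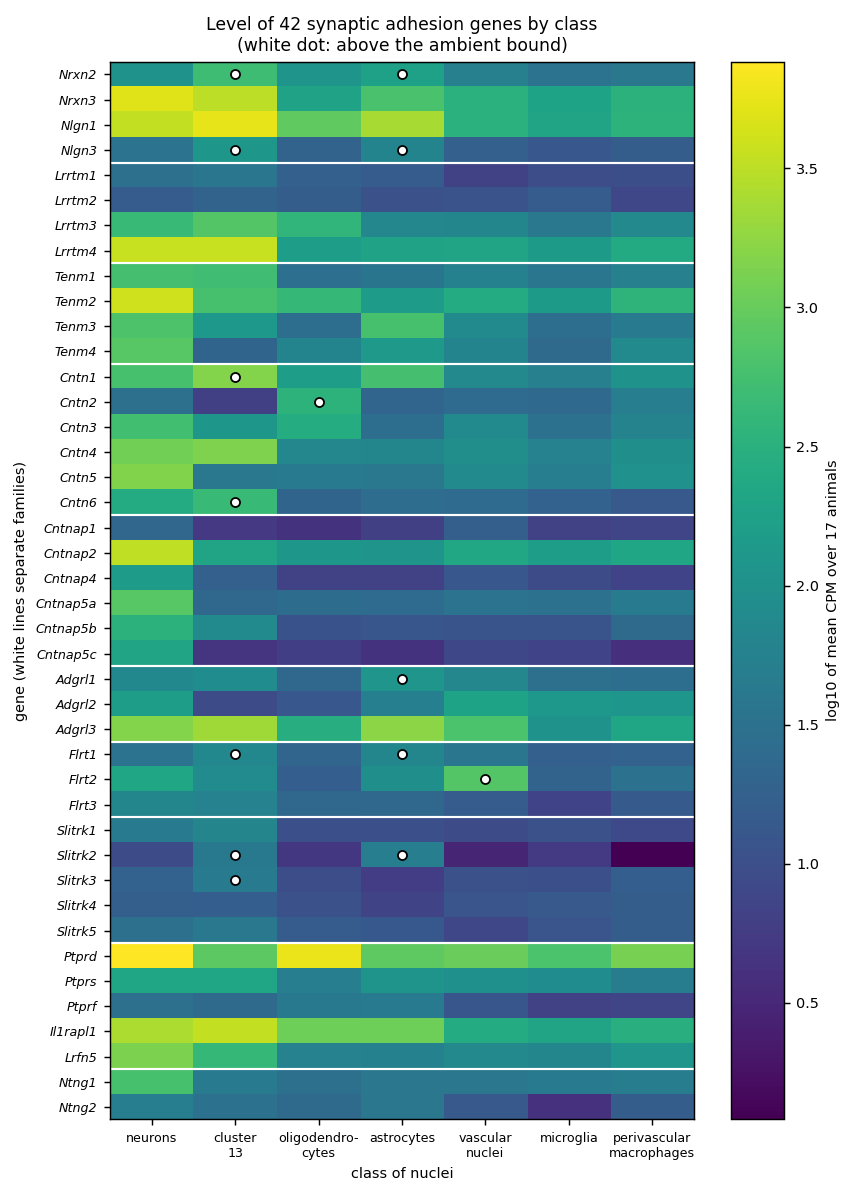
Mean level of the 42 genes (rows, grouped by family) in 7 classes of nuclei (columns) as log10 CPM over 17 animals; a white dot marks a level above the ambient bound. Cntn2 in oligodendrocytes, Flrt2 in vascular nuclei and Slitrk2 in astrocytes carry dots, while microglia and perivascular macrophages carry none.

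Cntn2, a contactin that clusters channels beside the node of Ranvier, was the member of oligodendrocytes. Its level there was 383.2, 339.3, 295.7 and 379.6 CPM in the saline animals, 392.8, 337.1, 282.3 and 353.9 after the free oligonucleotide, and 349.6, 338.4 and 392.3 after OTV:Malat1. The 6 anti-TfR:Malat1 animals lay between 304.8 and 423.3. All 4 groups overlapped. The mean was 350.5 ± 37.0 CPM (SD, n = 17) against 30.8 ± 2.24 in neurons, a ratio of 11.4 (9.69 to 13.9 over animals) where the bound had a median of 1.23. OTV:Malat1 against saline gave a fitted log2 change of -0.14 (SE 0.13, 95% interval -0.41 to 0.12). The mean CPM was slightly higher after OTV:Malat1 than in saline animals, while the fitted change was below 0. CPM were scaled on all UMIs, Malat1 included, and the fit used TMM scaling, so printed CPM and fitted changes need not share a sign. The part of the scaling in this gap was not tested.

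Flrt2, a leucine-rich repeat ligand of latrophilins and Unc5 receptors, was the member of vascular nuclei. Its level was 859.4, 724.0, 909.8 and 1059.5 CPM in saline animals, 517.9, 778.8, 472.1 and 571.3 after the free oligonucleotide, 545.4, 1024.7 and 587.4 after OTV:Malat1, and 397.8 to 1065 after anti-TfR:Malat1. The saline animals overlapped those given the free oligonucleotide, and the log2 change between them was -0.65 (SE 0.26, 95% interval -1.19 to -0.10, unadjusted p = 0.022, adjusted p = 1.00 by edgeR). The ratio to neurons was 3.28 (1.80 to 4.82). When vascular nuclei were split by their leading marker list, summed over animals, Flrt2 was at 1065 CPM (95% Poisson interval 992 to 1142) in the 501 fibroblast-led nuclei, 327 (266 to 397) in the 192 endothelial-led nuclei and 272 (224 to 327) in the 396 mural-led nuclei. It was at 1198 CPM (1031 to 1384) in the 133 nuclei that no single list led. The intervals cover counting error only, as the nuclei are not replicates. Adgrl2, a latrophilin, was highest in endothelial-led nuclei at 450 CPM (378 to 531), followed by 177 in fibroblast-led, 117 in unassigned and 65 in mural-led nuclei.

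The promoters of Cntn2 and Flrt2, the only members called above the ambient bound in oligodendrocytes and in vascular nuclei, are shown for the 250 bases before the start that the RefSeq promoter table uses. The annotated gene begins further upstream for both, so the Cntn2 window lies wholly and the Flrt2 window mostly within the annotated gene. Sequences are from RefSeq on GRCm38.p6, given in the direction of transcription. Cntn2 lies at chr1:132542941-132543190 on the minus strand and Flrt2 at chr12:95691976-95692225 on the plus strand. Capitals mark a match to the SOX motif ACAAAG or its reverse complement CTTTGT.
Cntn2: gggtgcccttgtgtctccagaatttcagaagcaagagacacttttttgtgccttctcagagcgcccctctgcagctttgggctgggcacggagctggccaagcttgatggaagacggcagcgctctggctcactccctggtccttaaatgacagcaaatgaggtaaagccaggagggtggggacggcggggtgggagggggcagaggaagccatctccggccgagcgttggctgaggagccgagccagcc
Flrt2: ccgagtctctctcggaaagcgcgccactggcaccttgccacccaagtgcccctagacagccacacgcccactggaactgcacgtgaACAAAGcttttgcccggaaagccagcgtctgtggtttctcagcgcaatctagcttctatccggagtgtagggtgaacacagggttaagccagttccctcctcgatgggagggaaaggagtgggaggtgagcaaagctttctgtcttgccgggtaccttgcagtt
The SOX letters occurred in 16.5% of 32851 promoter windows of this length and in 5 of the 32 members that had an entry (Adgrl2, Flrt2, Nlgn1, Nrxn3 and Slitrk2). The first is a share of windows and the second counts genes with a match in any of their windows, so they are not compared. The Cntn2 window held none. GC content was 61.2% for Cntn2 and 57.2% for Flrt2.

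Astrocytes and cluster 13 shared 4 of the members called above the bound: Nrxn2, Nlgn3, Flrt1 and Slitrk2. Slitrk2, which binds presynaptic receptor phosphatases, was 5.67 times its neuronal level in astrocytes, at 51.4 ± 10.5 CPM (SD, n = 17). The saline animals were at 51.0, 39.4, 53.9 and 41.9 CPM and the OTV:Malat1 animals at 70.7, 51.1 and 61.2, and these groups overlapped. Nlgn3, a neuroligin, was at 1.79 times its neuronal level in astrocytes and 3.53 times in cluster 13. Its group means in astrocytes were 56.5 ± 3.99 CPM in saline animals, 66.4 ± 11.2 after the free oligonucleotide, 63.8 ± 20 after anti-TfR:Malat1 and 68.1 ± 9.52 after OTV:Malat1 (SD). In the same order Nrxn2, a neurexin, had 188.0 ± 16.4, 171.9 ± 22.6, 174.7 ± 32.5 and 196.1 ± 24.8 CPM. Flrt1 had 60.6 ± 22.7, 65.4 ± 8.28, 70.6 ± 17.9 and 69.0 ± 10.1 CPM. For these genes every group overlapped every other in astrocytes. Adgrl1, a latrophilin, passed the bound in astrocytes only narrowly, at 1.52 times in 15 animals against a median bound of 0.99. Its group means, in the same order, were 125.7 ± 33.9, 108.7 ± 31.2, 110.6 ± 14.4 and 111.7 ± 11.1 CPM.

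In cluster 13 the widest ratios belonged to Nrxn2 at 4.66, Slitrk2 at 4.45 and Nlgn3 at 3.53, against a median bound of 1.44. Over all animals Gad1, an inhibitory neuron gene, had the highest ratio of the 15 marker genes in this cluster, at 1.43, while Gad2 was at 0.16. Gad1 was at 78.7 CPM in cluster 13 against 16.8 in microglia, and whether it was free RNA in cluster 13 was not tested. A member under this bound is therefore not shown to be at an ambient level. In all, 7 members passed, while 13 were higher than in neurons in every animal. The Nrxn2 means were 529.6 ± 35.5 CPM in saline animals, 517.7 ± 43.1 after the free oligonucleotide, 492.0 ± 70.8 after anti-TfR:Malat1 and 499.6 ± 64.0 after OTV:Malat1. In this order Nlgn3 had 122.4 ± 2.51, 118.2 ± 10.4, 120.8 ± 13.6 and 134.9 ± 17 CPM, and Slitrk2 had 48.1 ± 10.6, 39.9 ± 9.88, 39.9 ± 8.82 and 40.7 ± 1.2. Cntn1, a contactin of axons and of the oligodendrocyte lineage, was 2.51 times its neuronal level with means of 1508 ± 64.0, 1548 ± 46.9, 1526 ± 78.2 and 1452 ± 60.6 CPM. Slitrk3, another ligand of receptor phosphatases, was 2.23 times its neuronal level, with 45.8 ± 7.65, 42.9 ± 6.48, 41.2 ± 5.90 and 43.2 ± 9.29 CPM. Cntn6 was 1.73 times, with 449.4 ± 30.2, 441.9 ± 87.5, 458.8 ± 16.1 and 451.1 ± 30.1 CPM. Flrt1, a latrophilin ligand, was 2.06 times, with 70.2 ± 5.03, 66.3 ± 7.21, 74.0 ± 7.80 and 77.5 ± 2.81 CPM. Among these genes only Flrt1 had groups apart, OTV:Malat1 (from 74.4) above the free oligonucleotide (up to 73.9), a pair that was not tested. The gap was narrow and the groups had 3 and 4 animals. The share of all genes with groups apart was not counted, so no difference is read from it. The mean of Cntn6 was 451.2 ± 43.0 CPM in cluster 13 and 259.3 ± 21 in neurons. Tenm4 and Tenm3 went the other way: Tenm4 was at 20.5 CPM in cluster 13 against 795.3 in neurons, and Tenm3 at 127.3 against 654.9. Tenm2 was at 601.8 CPM against 4007, while Tenm1 was close to its neuronal level, at 520.1 against 571.1.

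A gene that neurons hold at a high level can hardly pass a bound set against neurons, so ratios to microglia were added after the values were seen. Against microglia, the 15 neuronal genes reached 0.61 to 0.89 in oligodendrocytes and 0.51 to 0.82 in astrocytes, but up to 2.14 in vascular nuclei and, for Gad1, 4.70 in cluster 13. Of the 7 members above the bound set against neurons in cluster 13, only 4 also passed against microglia. Tenm3 was 20.9 times and Adgrl3 16.5 times its microglial level in astrocytes, at 602.3 and 1643.1 CPM, and Nlgn1 was 12.4 times. In oligodendrocytes Lrrtm3 reached 10.0, Cntn3 9.42 and Ptprd 9.38. Ptprd was at 5829 ± 428 CPM in oligodendrocytes against 7644 ± 594 in neurons. In microglia, set against oligodendrocytes, only Adgrl2 passed, at a ratio of 10.5 and 126.8 ± 17.3 CPM (SD, n = 17).

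Among neurons, 11 deposited clusters with at least 95% of nuclei under the neuron label were described. By markers, clusters 1 and 4 were inhibitory-like (Gad1, Gad2, Slc32a1) and 10 carried Meis2, Drd1 and Drd2. Clusters 3, 5, 6 and 8 were excitatory-like (Slc17a7 and Neurod2 among their markers), 7 deep layer-like (Hs3st4, Tle4, Foxp2), 9 dentate granule-like (Prox1, Dock10, C1ql2) and 12 thalamic-like (Tcf7l2, Prkcd, Rora). Cluster 16, led by Ndnf, Trp73, Gabra6 and Reln, was not named. Its share of neurons was 0.27 to 0.50% in saline animals. The highest animal had 10.0% after the free oligonucleotide, 6.53% after anti-TfR:Malat1 and 3.64% after OTV:Malat1, so this cluster was unevenly sampled. The authors' doublet calls covered 62.0% of cluster 6, 45.0% of cluster 4 and between 27.1 and 30.4% of clusters 5, 10 and 12. Doublets were kept in the class and cluster levels given here. Without them, an alternative chosen after seeing the data, all 42 members had the same highest cluster and 40 the same lowest, Nlgn3 and Lrrtm4 being the exceptions. Of 462 levels, 3 moved by more than 1.5 times, all downward: Cntn2 in cluster 9 from 10.1 to 3.6 CPM, Cntnap4 in cluster 10 from 59.8 to 32.3, and Ntng2 in cluster 12 from 7.0 to 3.5. For 31 of 42 members the highest cluster was less than 2 times the median cluster, with ratios from 1.19 (Adgrl1) to 10.0 (Ntng1). The highest was more than 4 times the lowest cluster for 22 of 42, with a median ratio of 4.21 and a range from 1.56 (Cntn1) to 149 (Ntng1). The shares of all genes with such ratios were not counted.

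**Figure D2:**
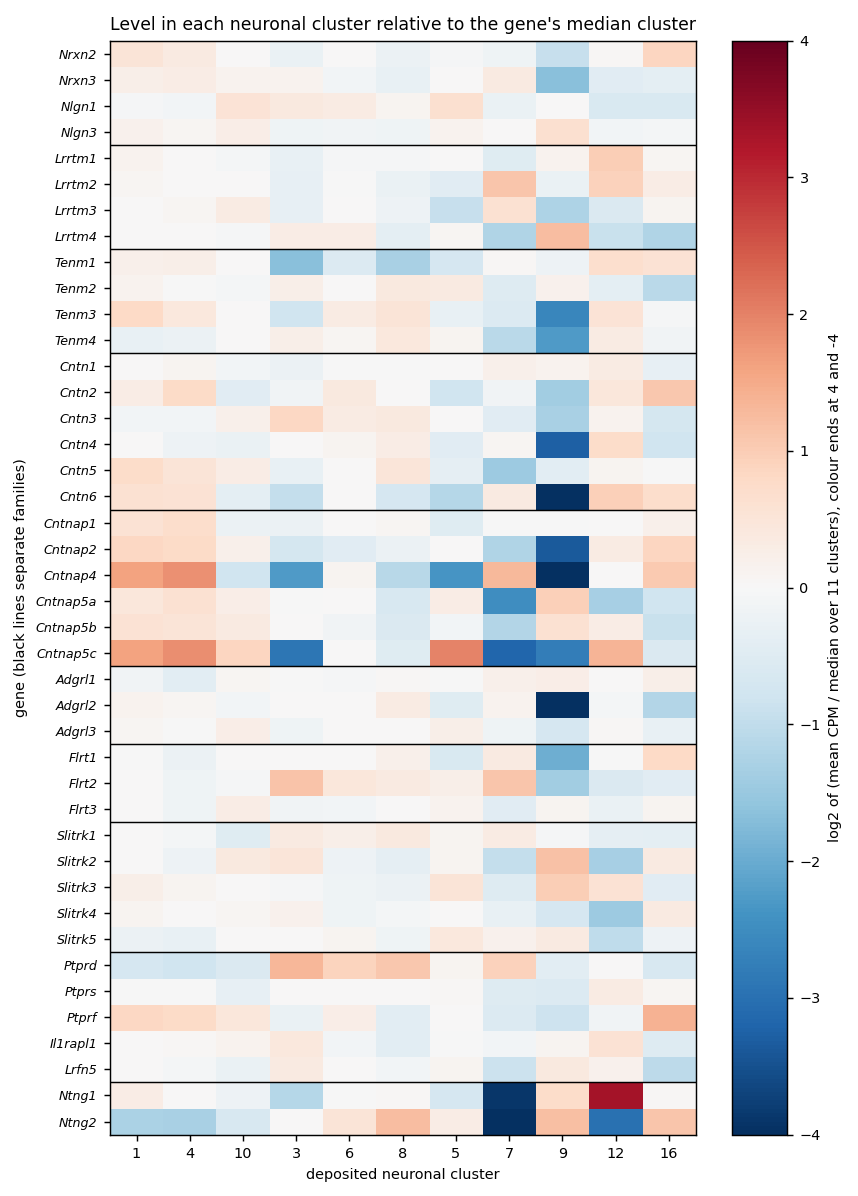
Level of the 42 genes (rows) in 11 neuronal clusters (columns) as log2 of mean CPM over the gene's median cluster, 17 animals, with colours ending at 4 in either direction. Ntng1 in cluster 12 is the darkest high cell, and the column of cluster 9 holds many of the low cells.

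Ntng1 had the widest gap between its highest and its median cluster of the 42 genes, 10.0 times. Ntng1, a membrane-anchored netrin-G protein, was at 4201 ± 160 CPM (SD, n = 17) in cluster 12, 695.5 ± 83.0 in cluster 9, the next highest, and 28.2 ± 8.69 in cluster 7. In cluster 12 the lowest animal had 3861 CPM, and the highest value in any other cluster was 970. Cluster 12 was the highest and cluster 7 the lowest in all 17 animals. Without doublets Ntng1 was at 4547 CPM in cluster 12. Its paralogue Ntng2 was at 130.9 ± 21.3 CPM in cluster 8, 126.4 ± 11.4 in cluster 9 and 118.9 ± 96 in cluster 16, which did not differ beyond their spread, and was lowest in cluster 7 at 2.3 ± 1.57 in all 17 animals. In cluster 12 Ntng2 was at 7.0 ± 1.94 CPM. Per length, cluster 12 had 1136 CPM per 100 kb of Ntng1 against 13 of Ntng2, and cluster 8 had 116.8 against 245.3.

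The promoters of these paralogues are shown because their levels ran in different orders over the neuronal clusters. Ntng1 lies at chr3:110143473-110143722 and Ntng2 at chr2:29248100-29248349 (GRCm38.p6, RefSeq), both on the minus strand. The Ntng2 window lies just before its annotated gene, while that of Ntng1 lies inside it, so the windows are not placed alike. No letters are in capitals because neither the SOX motif nor the TCF/LEF motif CTTTGAT, read on both strands, was found.
Ntng1: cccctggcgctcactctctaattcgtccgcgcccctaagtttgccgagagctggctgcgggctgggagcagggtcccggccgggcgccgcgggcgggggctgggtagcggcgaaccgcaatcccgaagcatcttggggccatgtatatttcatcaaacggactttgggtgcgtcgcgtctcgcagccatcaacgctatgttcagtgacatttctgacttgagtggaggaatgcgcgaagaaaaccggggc
Ntng2: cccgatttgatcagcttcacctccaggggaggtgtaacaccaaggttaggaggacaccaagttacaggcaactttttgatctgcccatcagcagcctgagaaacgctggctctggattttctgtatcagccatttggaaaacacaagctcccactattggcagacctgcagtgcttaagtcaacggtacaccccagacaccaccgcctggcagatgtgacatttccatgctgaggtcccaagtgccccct
The TCF/LEF letters, searched because cluster 12 is marked by Tcf7l2, occurred in 3.2% of all windows and in 2 of 32 members (Cntn1 and Cntn4). Here too the share is of windows and the count is of genes, so they are not compared. GC content was 62.4% for Ntng1 and 52.4% for Ntng2. The absence of a match says only that these letters are not in this window.

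Among neurexins and their ligands, the dentate granule-like cluster 9 held several of the extremes. Nrxn3 was lowest there at 1571 ± 148 CPM (SD, n = 17) and highest in cluster 7 at 6434 ± 585. Cluster 4 was close at 6170 ± 480, and cluster 7 was the highest in 11 of 17 animals. Nrxn2 was lowest in cluster 9 in all 17 animals, at 54.2 ± 6.21 CPM. Lrrtm4, a postsynaptic neurexin and heparan sulfate ligand, was the reverse: 8153 ± 733 CPM in cluster 9 against 1486 ± 270 in cluster 7, with the lowest animal in cluster 9 (7237) above the highest in any other cluster (5269). Lrrtm3 was lower in cluster 9 (213.5 ± 20.9 CPM) than in cluster 7 (773.2 ± 36.6). Lrrtm1 was highest in cluster 12 at 59.2 ± 8.47 CPM, and Nlgn1 ran from 1971 ± 557 in cluster 16, close to the 2006 ± 162 of cluster 12, to 4699 ± 242 in cluster 5.

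Of the teneurin, latrophilin and FLRT genes, 6 of 10 were lowest in cluster 9 (Tenm3, Tenm4, Adgrl2, Adgrl3, Flrt1 and Flrt2). Tenm3 was at 98.9 ± 12.2 CPM in cluster 9 against 1048 ± 147 in cluster 1, and Tenm4 at 179.7 ± 52.9 against 1144 ± 84.8 in cluster 8. Adgrl2 was at 6.5 ± 1.77 CPM against 211.7 ± 20.5 in cluster 8, and Flrt1 was at 9.7 ± 1.94. Both were lowest in cluster 9 in all 17 animals. The other four did not share this: Adgrl1 was at 88.3 ± 10.4 CPM in cluster 9, within the spread of clusters 16 and 7, Tenm2 was at 4360 ± 644 and Flrt3 at 74.5 ± 7.55 there, and Tenm1 at 570.9 ± 53.0 was lowest in cluster 3. Flrt2 was highest in clusters 3 (390.2 ± 66.4) and 7 (383.6 ± 42.5), which overlapped. Of the 42 genes, 17 were lowest and 8 highest in cluster 9. The same shares over all genes were not counted. These counts, and the 6 of 10 above, are therefore not read as particular to the members.

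Contactin-associated genes differed in which clusters held them. Cntnap4 was at 368.4 ± 42.6 CPM in cluster 4 and 316.3 ± 32.7 in cluster 1, both inhibitory-like, and 252.5 ± 61.5 in deep layer-like cluster 7. It was at 21.7 ± 3.83 in cluster 3, 20.2 ± 3.03 in cluster 5 and 3.1 ± 1.07 in cluster 9. Cntnap5c was highest in cluster 5 (414.2 ± 59.2) and cluster 4 (377.2 ± 39.7), which overlapped, and lowest in clusters 7, 3 and 9 (11.5 ± 5.19, 13.9 ± 3.14 and 15.3 ± 3.53), which also overlapped. Cntnap5a was highest in cluster 9 in all 17 animals (1414 ± 88.8). Cntnap2, linked in people to epilepsy and autism, was lowest in cluster 9 in all 17 animals, at 314.9 ± 34.3 CPM against 5686 ± 398 in cluster 1.

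Cntn4 was highest in thalamic-like cluster 12 in all 17 animals, at 2127 ± 96.3 CPM, and lowest in cluster 9, at 133.9 ± 33.1. Cntn6 had the same ends, 496.9 ± 50.7 and 12 ± 4.83 CPM. Cntn3 was highest in cluster 3 in every animal, at 891.6 ± 73.2 CPM. Ptprd was also highest there in every animal, at 14874 ± 895 CPM against 3432 ± 222 in cluster 4 and 3741 ± 308 in cluster 1. Slitrk3, which binds Ptprd, was highest in cluster 9 in all 17 animals at 33.5 ± 4.69 CPM.

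**Figure D3:**
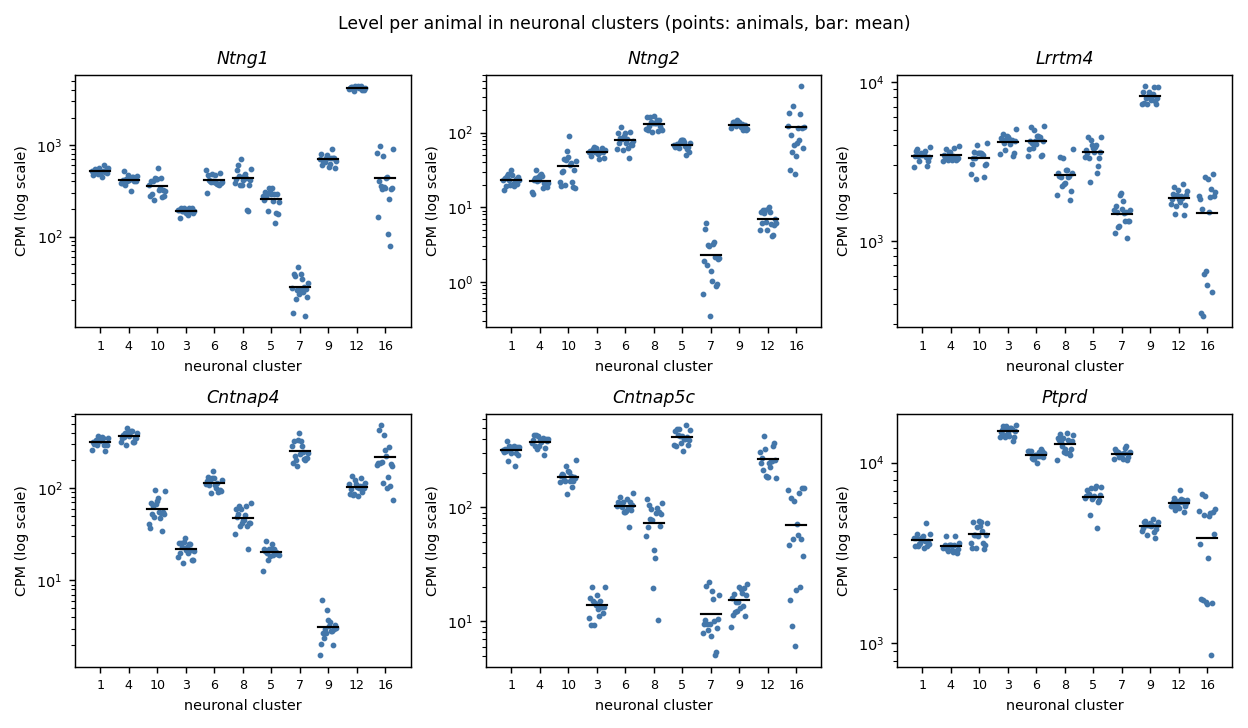
CPM of Ntng1, Ntng2, Lrrtm4, Cntnap4, Cntnap5c and Ptprd in each of 11 neuronal clusters on a log axis, 1 point an animal (17 animals). All Ntng1 points of cluster 12 lie at or above 3861 CPM and all of its other points at or below 970.

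None of the 42 genes passed an adjusted p of 0.05 in neurons in any of the 4 treatment comparisons (edgeR quasi-likelihood test, Benjamini-Hochberg over 20851 genes). No gene of the whole table did either (0% called in each comparison), so these counts say nothing particular about the members. DESeq2 also called 0 members in each. At an unadjusted p under 0.05, 0 members stood out for OTV:Malat1 against saline (1.22% of all genes), 3 for anti-TfR:Malat1 against saline (1.18%), 0 for the free oligonucleotide against saline (0.638%) and 2 for OTV:Malat1 against anti-TfR:Malat1 (2.08%). With the batch as a block these counts were 2, 2, 0 and 10 (2.12, 2.01, 0.93 and 4.46% of all genes), still with 0 calls after adjustment. In the last comparison all 5 pairs of animals from the same batch deviated together, with correlations of 0.12 to 0.42. The 95% interval of every member in every comparison lay between -0.45 and 0.43 on the log2 scale.

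In 3 of the comparisons most members lay on a single side of 0, and the counts moved under a common mix of clusters. Against saline, 17 members were above 0 for OTV:Malat1, 35 for anti-TfR:Malat1 and 34 for the free oligonucleotide, beside 50.9, 48.6 and 48.3% of all genes. Only 5 were above 0 for OTV:Malat1 against anti-TfR:Malat1 (52.9% of all genes). Single animals moved these counts: that for OTV:Malat1 against saline was 27 without OTV:Malat1 animal 2 and 6 without animal 3, and the 5 became 10 without animal 2. With every animal given a common mix of clusters and limma in place of edgeR, the counts above 0 became 32, 28, 30 and 22. These choices changed together, so the part of the mix alone was not tested. The medians over the 42 genes were -0.02, 0.06, 0.04 and -0.09 in the fit as sampled and 0.04, 0.03, 0.03 and 0.00 with the common mix, where the medians of all genes were 0.04, -0.03, -0.01 and 0.07. The first 3 comparisons share the saline animals and the first, second and last share treated animals, so these counts are not independent.

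**Figure D4:**
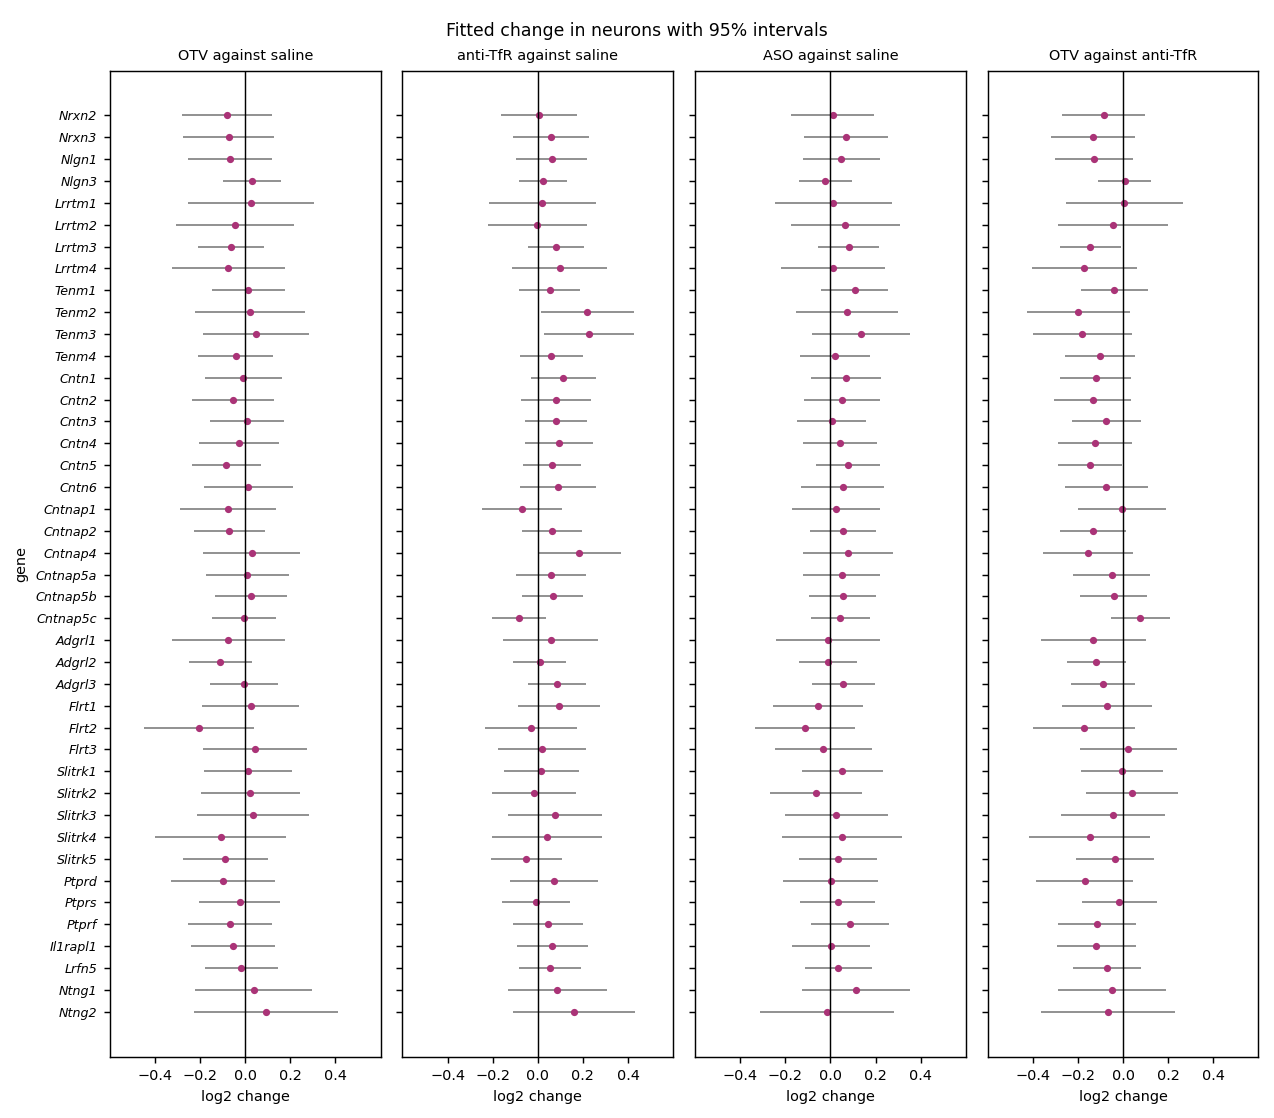
Fitted log2 change with its 95% interval for the 42 genes in neurons in the 4 comparisons, 1 panel each, with a line at 0. All intervals lie between -0.45 and 0.43 and none of the genes passed the adjusted threshold.

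For anti-TfR:Malat1 against saline, the members with the lowest unadjusted p were 2 teneurins and a contactin-associated gene. Tenm3, a teneurin that guides topographic wiring, was at 567, 629, 599 and 617 CPM in saline animals, and from 559 through a median of 689 to 780 after anti-TfR:Malat1. The anti-TfR:Malat1 group spanned the saline range and went above it. The fitted log2 change was 0.23 (SE 0.09, unadjusted p = 0.028, adjusted p = 1.00 by edgeR). Tenm2, a teneurin that binds latrophilins, was at 3377, 3849, 3591 and 4163 CPM in saline animals and between 3506 and 4879 after anti-TfR:Malat1, with a median of 4304. Its log2 change was 0.22 (SE 0.10, unadjusted p = 0.039, adjusted p = 1.00 by edgeR), and the groups overlapped.

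Cntnap4 was at 124, 152, 137 and 149 CPM in saline animals and between 139 and 185, median 153, after anti-TfR:Malat1. Its log2 change was 0.18 (SE 0.09, unadjusted p = 0.048, adjusted p = 1.00 by edgeR). Within the 4 batches of the deposited metadata the CPM ratio gave 0.46, 0.10, 0.07 and 0.21 for Tenm3, 0.53, 0.15, 0.18 and 0.00 for Tenm2, and 0.57, -0.02, 0.11 and 0.04 for Cntnap4 (log2). For all 3 genes the first batch held the widest difference. Over the 11 neuronal clusters the change was above 0 in 10 for Tenm3, 10 for Tenm2 and 11 for Cntnap4. These clusters share the same animals and are parts of the neurons in which the 3 genes were chosen, so the signs are not independent.

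OTV:Malat1 against saline had its lowest p at Flrt2. Saline animals were at 205, 222, 195 and 294 CPM and OTV:Malat1 animals at 190, 213 and 221, so the groups overlapped and the saline animal at 294 stood above the rest. The log2 change was -0.20 (SE 0.12, unadjusted p = 0.093 by edgeR) and -0.05 without that animal. Within the 3 batches that held both groups the CPM ratio gave -0.23, 0.12 and -0.41 (log2). OTV:Malat1 had no animal in the first batch. Adgrl2, a latrophilin that Flrt2 can bind, was at 154, 161, 169 and 157 CPM in saline animals and 153, 155 and 156 after OTV:Malat1, a log2 change of -0.11 (SE 0.07). Cntn5, a contactin, was at 1396, 1475, 1438 and 1455 CPM in saline animals and 1325, 1359 and 1566 after OTV:Malat1, a log2 change of -0.08 (SE 0.07).

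OTV:Malat1 against anti-TfR:Malat1 had its lowest p at Lrrtm3 and Cntn5, both lower after OTV:Malat1. Lrrtm3 was at 457, 443 and 445 CPM after OTV:Malat1 and from 447 through 467 to 484 after anti-TfR:Malat1, a log2 change of -0.14 (SE 0.07, unadjusted p = 0.038, adjusted p = 0.99 by edgeR). Cntn5 was at 1325, 1359 and 1566 CPM after OTV:Malat1 and from 1393 through 1464 to 1569 after anti-TfR:Malat1, a log2 change of -0.15 (SE 0.07, unadjusted p = 0.045, adjusted p = 0.99 by edgeR). Both pairs of groups overlapped. Within batches the CPM ratio gave -0.08, -0.05 and -0.05 for Lrrtm3 and -0.07, -0.06 and 0.05 for Cntn5 (log2). These values lay nearer to 0 than the fitted changes, but CPM ratios and fitted changes are scaled differently. The gap is therefore not read as an effect of batch. With the batch as a block in the fit, the median log2 change over the members was -0.11, further from 0 than without the block. Cntnap2 had the next lowest p, at 3160, 3373 and 3236 CPM after OTV:Malat1 and from 3068 through 3339 to 3722 after anti-TfR:Malat1, a log2 change of -0.13 (SE 0.07). With the common cluster mix the log2 changes were -0.04 for Lrrtm3 and -0.07 for Cntn5.

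The free oligonucleotide against saline had its lowest p at Tenm1, Tenm3 and Lrrtm3. Tenm1, an X-linked teneurin, was at 569, 588, 630 and 584 CPM after the oligonucleotide and 571, 559, 524 and 563 in saline animals, groups that met at their edges. Its log2 change was 0.11. Tenm3 had 0.13 and Lrrtm3 0.08.

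**Figure D5:**
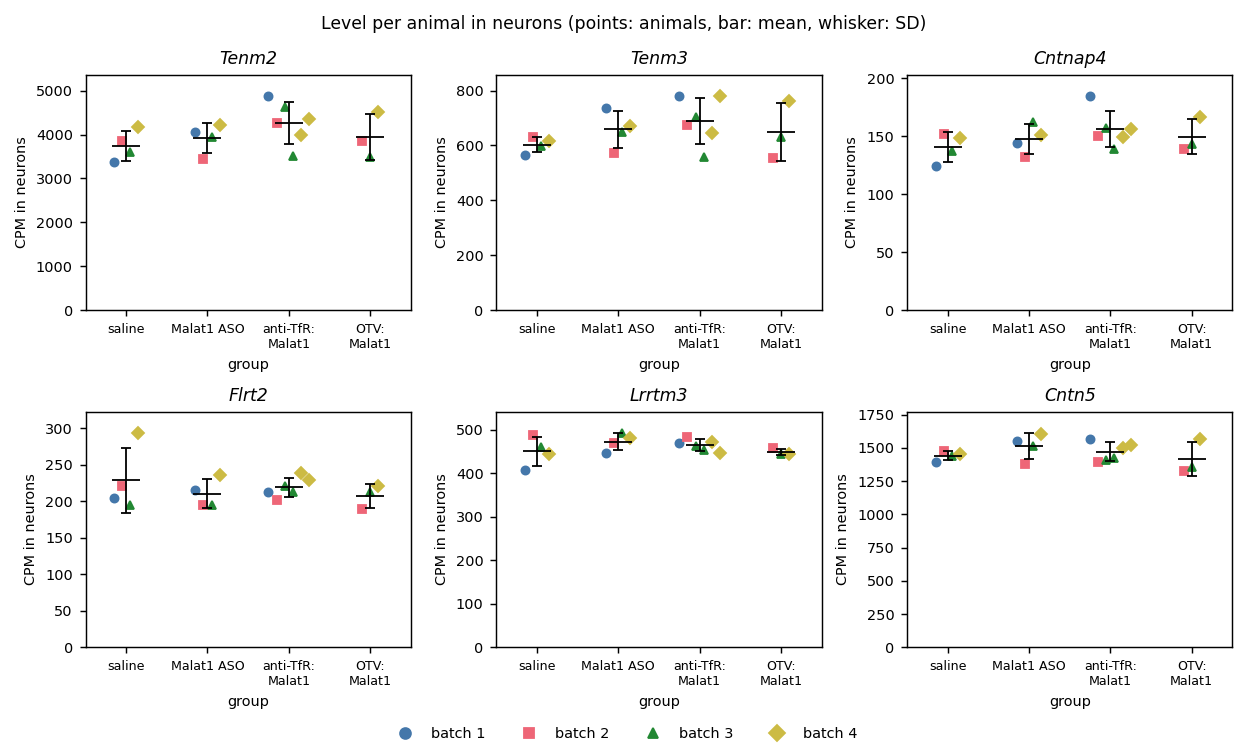
CPM in neurons of Tenm2, Tenm3, Cntnap4, Flrt2, Lrrtm3 and Cntn5 in each of the 17 animals by group, with markers by batch and bars for mean ± SD. The groups overlap for all 6 genes, and the saline animal at 294 CPM of Flrt2 stands above the other animals.

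Within the 11 neuronal clusters 449 member tests were made per comparison and 0 passed the adjusted threshold, as did 0 of all genes. At an unadjusted p under 0.05 the members gave 6, 24, 4 and 17 tests, or 1.34, 5.35, 0.89 and 3.79%, against 2.49, 2.18, 1.28 and 3.24% over all genes (OTV:Malat1, anti-TfR:Malat1 and the free oligonucleotide against saline, then OTV:Malat1 against anti-TfR:Malat1). Flrt2 was below 0 in all 11 clusters for OTV:Malat1 against saline, with a median of -0.19; the clusters share the saline animal that stood above the rest. Lrrtm3 was below 0 in all 11 for OTV:Malat1 against anti-TfR:Malat1. Both genes were chosen by their p in neurons as a whole, and the clusters are parts of those neurons. Their signs over clusters are therefore no independent support, and the share of all genes with a single sign was not counted. For Lrrtm3 the lowest p was in cluster 12, at -0.32 (SE 0.08, unadjusted p = 0.00085, adjusted p = 0.79 by edgeR). In 5 further clusters where fewer nuclei carried the neuron label, 169 member tests per comparison gave 0 calls, against at most 0.0142% of genes in a cluster. The neuron label covered 16.6, 12.7 and 15.5% of clusters 2, 11 and 14. It covered 61.2 and 65.2% of clusters 17 and 18, where the authors' doublet calls covered 76.5 and 82.7%. Doublets were kept in these tests. At an unadjusted p under 0.05 the members gave 4.73, 9.47, 14.2 and 3.55% of these tests, against 3.41, 3.73, 4.02 and 3.93% over all genes, and the median of the members in a cluster reached 1.19 (log2) for the free oligonucleotide against saline. With the batch as a block, Nrxn3 was called in the neuron-labelled nuclei of cluster 11 for the free oligonucleotide against saline (log2 change 1.62, adjusted p = 0.0466 by edgeR), where 0.535% of genes were called. Only 1284 of the 10097 nuclei of cluster 11, or 12.7%, carried the neuron label. For the same comparison, without the block, Nrxn3 had a log2 change of 0.71 in microglia (unadjusted p = 0.025, adjusted p = 1.00 by edgeR), where its level was 194.1 CPM against 5050 in neurons. The part of free neuronal RNA in these differences was not tested.

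Outside neurons the members were measured less closely. The median width of the 95% interval on either side was 0.39 to 0.46 (log2) in oligodendrocytes and 0.92 to 1.1 in vascular nuclei, against 0.16 to 0.19 in neurons. Of the members, 42 were tested in oligodendrocytes, 39 in cluster 13, 32 in astrocytes, 28 in microglia, 18 in vascular nuclei and 8 in perivascular macrophages, and 0 were called in any class or comparison by edgeR or DESeq2. Over all genes, 0.0209% were called for OTV:Malat1 against saline in oligodendrocytes, 0.00696% for OTV:Malat1 against anti-TfR:Malat1 there, 0.0117% for each of these in astrocytes, 0.011% for OTV:Malat1 against saline in microglia, and 0% elsewhere. At an unadjusted p under 0.05 there were, in the order of comparisons above, 1, 1, 2 and 1 members in oligodendrocytes (2.6, 1.75, 1.16 and 2.79% of all genes), 0, 1, 0 and 1 in cluster 13 (3.7, 2.85, 2.52 and 3.95%), and 2, 0, 0 and 0 in astrocytes (3.82, 2.98, 2.17 and 4.04%). Microglia gave 0, 5, 4 and 1 (4.06, 2.92, 2.26 and 3.64%), perivascular macrophages 0, 1, 4 and 1 (3.46, 3.24, 5.15 and 4.09%) and vascular nuclei 3, 1, 4 and 1 (5.12, 2.21, 4.18 and 4.42%). Among the 5 in microglia after anti-TfR:Malat1 were Cntn4, Cntn6 and Tenm3, whose levels in microglia were 59.2, 18.8 and 28.5 CPM, against 1200.5, 259.3 and 654.9 in neurons; the part of free neuronal RNA in these differences was not tested. In vascular nuclei the 3 for OTV:Malat1 against saline were Tenm2 at 2.00 (SE 0.58, unadjusted p = 0.0022), Nrxn3 at 1.56 (SE 0.49, unadjusted p = 0.0042) and Adgrl2 at -0.84 (SE 0.33, unadjusted p = 0.018), with adjusted p from 0.83 to 0.94 by edgeR. The 4 after the free oligonucleotide were Nrxn3 at 1.53 (SE 0.46), Tenm2 at 1.36 (SE 0.57), Il1rapl1 at 0.96 (SE 0.42) and Flrt2 as given above, each with an adjusted p of 1.00. The part of free neuronal RNA in the Tenm2, Nrxn3 and Il1rapl1 differences was not tested. In perivascular macrophages the 4 after the free oligonucleotide were among only 8 members tested. They were Il1rapl1 at 1.18 (SE 0.41), Cntnap2 at 1.43 (SE 0.50), Ptprd at 1.38 (SE 0.49) and Nlgn1 at 1.16 (SE 0.48). Each of these 4 had an adjusted p of 0.81 by edgeR, and the part of free neuronal RNA in them was not tested either. These counts outside neurons were made without the batch as a block, and the block moved them. In vascular nuclei, for OTV:Malat1 against anti-TfR:Malat1, Nlgn1, Adgrl2, Lrrtm3, Nrxn3 and Cntn1 then had an unadjusted p under 0.05. Each had an adjusted p of 0.94 by edgeR, and the share of all genes with the block is not given here. Cntn1 in oligodendrocytes had an unadjusted p under 0.05 in 3 of the 4 comparisons, with log2 changes of 0.20 (SE 0.08) after anti-TfR:Malat1 and 0.25 (SE 0.09) after the free oligonucleotide, and -0.26 (SE 0.09, unadjusted p = 0.007, adjusted p = 0.99 by edgeR) for OTV:Malat1 against anti-TfR:Malat1.

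Of 48 other synaptic organisers, among them the Cadm, Lrrc4 and cerebellin genes, 0 were called in neurons (0% of all genes), and 1, 0, 1 and 6 had an unadjusted p under 0.05, beside 1.22, 1.18, 0.638 and 2.08% of all genes. Their medians were -0.03, 0.06, 0.03 and -0.09 (log2) over the 4 comparisons in the order above. Dscaml1, a homophilic adhesion gene, was among those with the lowest p, at -0.26 (SE 0.11, unadjusted p = 0.022 by edgeR) for OTV:Malat1 against anti-TfR:Malat1. Of 29 scaffold genes 0 were called, and 0, 0, 0 and 2 had an unadjusted p under 0.05, beside the same shares of all genes. The scaffold medians were -0.06, 0.05, 0.01 and -0.11 (log2). Above 0 were 4, 21, 16 and 3 scaffold genes and 14, 35, 29 and 11 of the 48 organisers, beside 50.9, 48.6, 48.3 and 52.9% of all genes. Homer1, a postsynaptic scaffold, had a log2 change of -0.62 (SE 0.33, unadjusted p = 0.076 by edgeR) for OTV:Malat1 against saline.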

How the data were processed

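The deposited table holds UMI counts per gene and nucleus, not normalized; per the submitters' processing notes the authors used Cell Ranger 6.0.1, Seurat 4 and mm10. Nuclei filters, the doublet caller and the reference behind the class labels are not given in the sources used here. Classes, clusters, doublet calls and batch numbers were taken from the deposited metadata, of which 11 columns were not used; the 225 nuclei labelled Glia were left out of the class values.

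Counts were summed per animal and class. CPM were scaled on all UMIs of that sum, Malat1 included. Treatment was tested with edgeR 4.0.16 (quasi-likelihood, all 17 animals in 1 fit, filterByExpr, TMM, Benjamini-Hochberg over all genes tested, threshold 0.05) in R 4.3.3, with DESeq2 1.42.0 and limma 3.58.1 (log2 of CPM plus 1, common cluster mix) as alternatives. On simulated counts for OTV:Malat1 against saline in neurons, 20708 genes, 67.7% of genes changed by 2-fold and 32.3% of genes changed by 1.5-fold were recovered.

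Members with values by animal or by group were, by rule, those with the 3 lowest p-values per comparison in neurons, those above the ambient bound and those whose highest neuronal cluster was at least 4 times the median; each family has at least 1. The members and lists were chosen with earlier results of these data known. Choosing 11 neuron-led clusters, splitting vascular nuclei by markers, the gene-length and promoter descriptions and the ratio to microglia came after values were seen. Gene lengths and promoters were read from annotation tables; 32 of 42 members had a promoter.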

Additional observations from a re-analysis of the deposited data

Results flagged for a closer look

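3 of 69 groups of 4 to 6 animals held an animal far from the others in its group, and chance flags about 1 in 20 groups. Cntn6 in cluster 13 was at 572.8 CPM in animal 3 of the free oligonucleotide group, against a group median of 402.7. Nlgn3 in astrocytes was at 101.1 CPM in animal 4 of the anti-TfR:Malat1 group, against a median of 61.1. Flrt1 in astrocytes was at 94.3 CPM in animal 3 of the saline group, against a median of 50.7.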

How the results depend on the processing

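No member was called in neurons under any of 31 alternatives, and none of the 12 named changes reversed. Some of the 31 left out an animal of a group not compared, which hardly moves a change. The 12 were chosen by their lowest p in the same data. For OTV:Malat1 against saline, the CPM ratio was above 0 in 1 of 3 batches for Flrt2, 0 for Adgrl2 and 1 for Cntn5. The log2 changes ranged from -0.28 to -0.05 for Flrt2, -0.13 to -0.04 for Adgrl2 and -0.18 to -0.01 for Cntn5 (OTV:Malat1 against saline), 0.19 to 0.28 for Tenm3, 0.17 to 0.29 for Tenm2 and 0.13 to 0.23 for Cntnap4 (anti-TfR:Malat1 against saline), 0.06 to 0.15 for Tenm1, 0.10 to 0.19 for Tenm3 and 0.04 to 0.13 for Lrrtm3 (free oligonucleotide against saline), and -0.18 to -0.04 for Lrrtm3, -0.25 to -0.06 for Cntn5 and -0.16 to -0.05 for Cntnap2 (OTV:Malat1 against anti-TfR:Malat1). Adjusted p-values ran from 0.447 to 1.00. Members with an unadjusted p under 0.05 ranged over 0 to 2, 0 to 5, 0 to 0 and 0 to 10, the last reached with the batch as a block. Leaving out any single animal left 0 members called in each comparison; members above 0 then ranged over 6 to 27, 30 to 37, 24 to 36 and 4 to 10. With the replicate number in the titles as a block, 0 members were called; same-numbered animals correlated between -0.42 and 0.43, with at least 1 pair under 0.1 in every comparison, so the numbers were not taken to pair them. For the free oligonucleotide against saline the number is also the batch, and 3 of 4 pairs lay at 0.27 to 0.43. Animals of the same batch correlated at -0.01 to 0.43 for OTV:Malat1 and -0.01 to 0.36 for anti-TfR:Malat1 against saline, and at 0.12 to 0.42 for OTV:Malat1 against anti-TfR:Malat1. With the batch as a block, 1 member, Nrxn3, was called in the neuron-labelled nuclei of cluster 11 (free oligonucleotide against saline, log2 change 1.62, adjusted p = 0.0466 by edgeR; 0.535% of genes there called). The ambient bound decides how many members pass in glia. With the list's median as the bound, 19 passed in oligodendrocytes, 29 in cluster 13, 21 in astrocytes, 9 in microglia, 1 in perivascular macrophages and 7 in vascular nuclei; with the ratio to microglia (for microglia, to oligodendrocytes) 13, 12, 14, 1 and 2 passed in the same order without perivascular macrophages. The cause of these shifts was not tested beyond the change of bound. Shares of all genes passing these bounds were not counted, so the counts say nothing particular about the members. Glial and vascular values rest on fewer nuclei than neuronal values, and vascular nuclei and perivascular macrophages had only 1222 and 657 nuclei.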
